A study of Mus musculus with 6 samples.

Results

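The genes described here are the secreted WNT ligands, the proteins that receive them at the cell surface and the secreted proteins that enhance or block them, in lung tissue after hemorrhagic shock (HS). They were chosen by symbol among protein-coding genes, as all *Wnt*, *Rspo*, *Fzd*, *Sfrp* and *Dkk* genes together with *Lrp5*, *Lrp6*, *Wif1*, *Frzb*, *Notum* and *Axin2*. This gave 48 of the 54532 genes in the read counts. They comprise 19 WNT ligands, 4 R-spondins, 10 frizzled receptors, 2 co-receptors, 6 antagonists that bind WNT, 5 DKK family members, the enzyme *Notum* and the feedback inhibitor *Axin2*.

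WNT proteins are lipid-modified signals that act over short distances. A WNT that bridges a frizzled receptor and the co-receptor LRP5 or LRP6 stops the breakdown of β-catenin, which then enters the nucleus and acts with TCF/LEF transcription factors, whereas other WNT responses run through cell polarity and calcium signals. In the lung, WNT signaling directs the budding of the airways in the embryo and maintains alveolar type 2 cells in the adult, and *Axin2*, which β-catenin induces in most tissues, is the gene commonly read as a marker of an active pathway.

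Both groups underwent the same procedure, and no unshocked lungs were compared here. GRdim/dim mice carry a point mutation (Nr3c1 tm3Gsc) that impairs dimerization of the glucocorticoid receptor (GR) in every cell, and GR+/+ mice were their littermates on the same 129/SvEv × C57BL/6 background, 10 to 16 weeks old. Under sevoflurane, ketamine, midazolam and fentanyl and with mechanical ventilation, the mice were bled to a mean arterial pressure of 35 mmHg for 1 h, re-transfused and resuscitated for 4 h with colloids and norepinephrine. Lungs of 3 GR+/+ mice (2 female, 1 male) and 3 GRdim/dim mice (1 female, 2 male) gave 1 library each, so that sex is partly confounded with genotype, and which library came from which sex is not stated in the labels. The counts per library summed to 16361747 to 32082940 in GR+/+ and 15687734 to 24444604 in GRdim/dim mice. Levels are given as CPM, counts scaled to a common library total, and levels of different genes are compared only as CPM per kilobase of transcript (RPKM). A negative log2 fold change means a lower level in GRdim/dim lungs. Differentially expressed genes (DEGs) were those with an adjusted *p* under 0.05 in edgeR's quasi-likelihood test and a log2 fold change over 0.5 in size.

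The sequence upstream of *Axin2* is shown because it was the member with the smallest *p* and because GR, the mutated protein, can bind the letters AGAACA, which form one arm of the palindrome that a GR dimer occupies (AGAACA and TGTTCT, 3 bases of any kind between them). *Axin2* lies on the plus strand of chromosome 11 from 108920349 to 108950783 (GRCm38). The 250 bases before its start, chr11:108920099-108920348 in RefSeq's annotation of GRCm38.p6, read as follows, with AGAACA in capitals.
Axin2: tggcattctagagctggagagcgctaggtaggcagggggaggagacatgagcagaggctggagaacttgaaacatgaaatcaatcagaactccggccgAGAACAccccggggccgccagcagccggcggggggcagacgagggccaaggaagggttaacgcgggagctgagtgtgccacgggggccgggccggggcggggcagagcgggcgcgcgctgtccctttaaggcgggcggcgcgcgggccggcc
The capitals start 152 bases before the gene, and 69.2% of these bases were G or C. Windows of 300 bases around the start were searched on both strands for 34 RefSeq promoters of 31 members and for all 32851 promoters. AGAACA stood in 5 of the 34, those of *Axin2*, *Dkk2*, *Fzd4*, *Wnt5b* and *Wnt8b*, and in 19.0% of all promoters. The full palindrome stood in none of the 34 and in 0.00913% of all. The TCF/LEF letters CTTTGAT or CTTTGAA stood in 3 of the 34, those of *Dkk1*, *Wnt11* and *Wnt5b*, and in 8.65% of all. These matches describe the letters only, and whether GR or TCF/LEF occupied any of them was not measured.

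Most of the family was transcribed in these lungs. A mean RPKM over 1 was found for 29 of the 48 genes, over 5 for 14 and over 10 for 6. The 6 highest were *Dkk3*, the receptors *Fzd4*, *Fzd1* and *Fzd7* and both co-receptors, while no ligand exceeded a mean RPKM of 6.24. At the other end, *Wnt1* had 0 counts in all 6 libraries, where a count of 0 allows up to 3 counts. Enough reads for a test (edgeR's filterByExpr) were found for 34 members, and the other 14 had at most 49 counts over the 6 libraries.

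**Figure D1:**
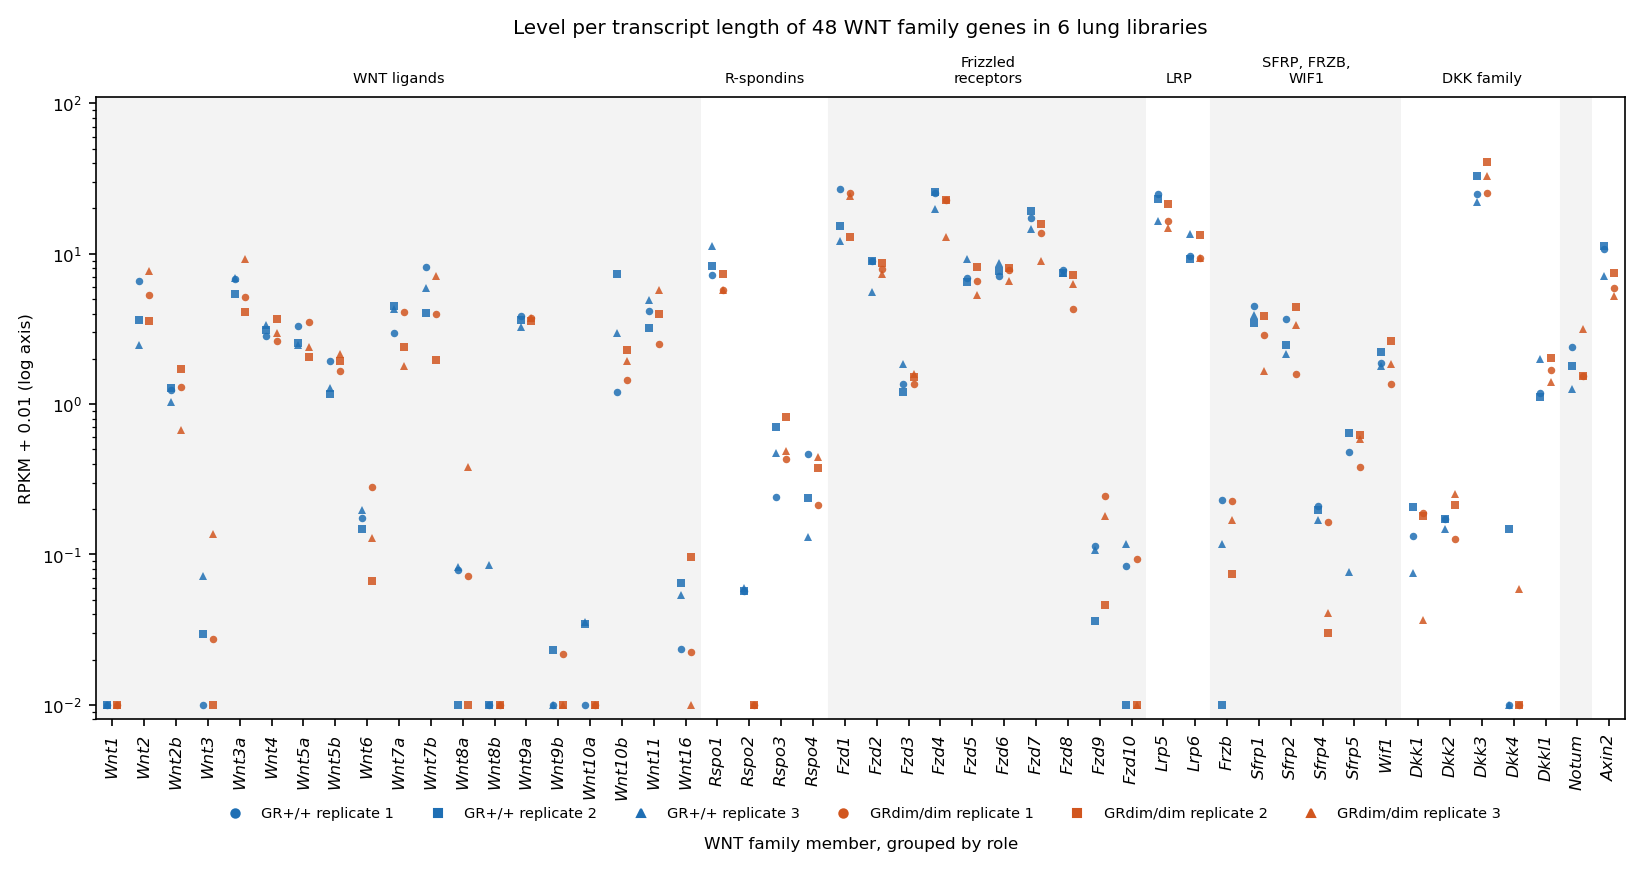
Level of each of the 48 genes per transcript length (RPKM plus 0.01, log axis) in the 3 GR+/+ (blue) and 3 GRdim/dim (orange) libraries, with 1 point per library and genes grouped by role. Points of both genotypes intermingle for nearly every gene, the receptors lie mostly above 5 RPKM and the 14 untested genes lie at the low end, together with tested genes such as *Sfrp4* and *Dkk2*.

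No member was a DEG, against 0.169% of the 16568 genes tested. Of the 34 members tested, 15 were higher and 19 lower (55.9%) in GRdim/dim lungs, whereas 49.1% of all genes were lower. Their median log2 fold change was -0.01, against 0.006 over all genes. An unadjusted *p* under 0.05 in edgeR's quasi-likelihood test was reached by 1 member, *Axin2*, which is 2.94% of the members tested and lies below the 9.60% of all genes (4.68% lower and 4.91% higher). For 2 of the members tested, *Sfrp4* and *Fzd8*, every GRdim/dim library lay below every GR+/+ library. These are 5.88% of the members tested, against 14.8% of all genes (7.05% lower). DESeq2 gave 0 DEGs among the 32 members with an adjusted *p*, the smallest of which was 0.237, against 1.70% of all genes. It gave an unadjusted *p* under 0.05 for 3 of 47 members, *Axin2*, *Rspo2* and *Wnt10b*, against 5.91% of all genes.

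The precision of these comparisons differed widely within the family. For 18 of the 34 members the 95% interval of the fold change lay within 2-fold in both directions, among them all 8 frizzled receptors tested and both co-receptors. A decrease of 2-fold or more lay outside the interval for 26 members and an increase of 2-fold or more for 25. The median standard error of the members was 0.30 log2 units, against 0.25 over all genes, and the median size of their log2 fold changes was 0.29, against 0.21. In 7 members the highest library exceeded the lowest more than 3-fold.

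**Figure D2:**
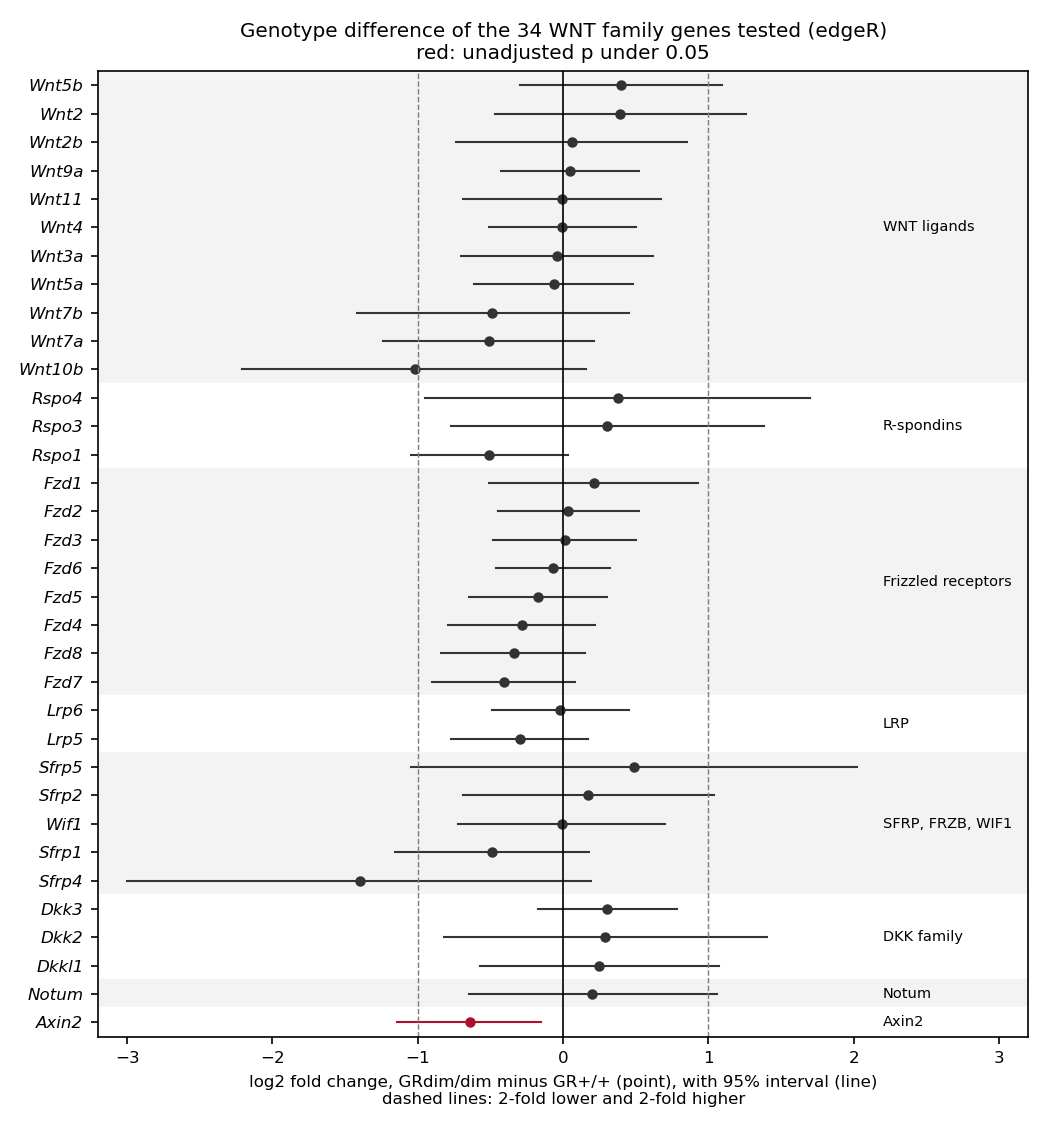
Log2 fold change (GRdim/dim minus GR+/+) of the 34 genes tested by edgeR, as points with 95% intervals from 3 libraries per genotype, and dashed lines at 2-fold lower and higher. The interval of *Axin2* (red) lies below 0, all others include 0, and the widest are those of *Sfrp4* (-3.00 to 0.19) and *Sfrp5* (-1.05 to 2.02).

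*Axin2* encodes a scaffold of the complex that destroys β-catenin and is itself induced by β-catenin, which makes it a negative feedback regulator. It was present at 58.7, 62.2 and 38.8 CPM in GR+/+ replicates 1, 2 and 3 and at 32.7, 40.7 and 28.7 CPM in GRdim/dim replicates 1, 2 and 3. The groups overlapped, because GR+/+ replicate 3 lay below GRdim/dim replicate 2. The mean was 53.3 ± 12.7 CPM in GR+/+ and 34 ± 6.10 CPM in GRdim/dim lungs (SD, n = 3 mice each), a 1.56-fold lower level. The log2 fold change was -0.64 (standard error 0.22, 95% interval -1.14 to -0.15). It had *p* = 0.0159 in edgeR's quasi-likelihood test (0.402 after Benjamini-Hochberg adjustment over all genes) and *p* = 0.2 in the exact two-sided permutation test of its CPM. For 3 against 3 libraries, 0.1 is the smallest value the permutation test allows. Without GR+/+ replicate 1 or 2, the edgeR *p* was 0.0582 or 0.0741 and the log2 fold change -0.56 or -0.51. An antisense gene, *Gm11670*, covers 209 of its 5506 exon bases (3.8%) and held 1, 4 and 2 counts in GR+/+ and 0 counts in all GRdim/dim libraries, whereas *Axin2* held 445 to 1221 counts per library. In bulk tissue, fewer cells of a type and less RNA per cell cannot be told apart.

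Markers of other lung and blood cells were summed for each library, and 3 of 14 lists had summed levels that did not overlap between genotypes. Of all single genes tested, 14.8% did not overlap. An unadjusted *p* under 0.05 in edgeR's test was reached by 9.60% of them (4.68% lower and 4.91% higher). No such share was computed for sums of genes. Macrophage markers summed to 451 to 471 CPM in GR+/+ and 279 to 399 CPM in GRdim/dim lungs, and 1 of the 6 (*Chil3*, lower) had an unadjusted *p* under 0.05. Without *Chil3*, the other 5 summed to 189 to 221 and 184 to 237 CPM and overlapped, a sum taken after the data had been seen. B cell markers summed to 50.6 to 120 against 128 to 440 CPM (4 of 6, all higher), and NK cell markers to 6.87 to 15.8 against 18.3 to 27.5 CPM (3 of 5, all higher). T cell markers overlapped narrowly, at 17.4 to 33.2 against 33 to 48.0 CPM, with all 6 higher and 3 of them with an unadjusted *p* under 0.05. Neutrophil markers overlapped too, with all 5 tested higher and 1 under 0.05. Of 8 endothelial markers, summing to 2820 to 4306 against 3408 to 3969 CPM, 2 were higher and 1 lower with an unadjusted *p* under 0.05. Ciliated cell markers overlapped, at 193 to 395 against 129 to 203 CPM, with all 5 lower and 1 of them (*Foxj1*) with an unadjusted *p* under 0.05. Alveolar type 2 markers summed to 17146 to 24931 against 17217 to 25412 CPM and fibroblast markers to 1234 to 2955 against 1901 to 2592 CPM. The sums for alveolar type 1 cells, club cells, smooth muscle and pericytes, mesothelium and pulmonary vein cardiomyocytes overlapped too. Of these, 1 alveolar type 1 marker and 1 mesothelial marker were higher with an unadjusted *p* under 0.05. None of the markers was at 0 in all libraries. Of 7 glucocorticoid response genes, 4 were lower with an unadjusted *p* under 0.05 and none was higher at that level. The part of these cell markers in the level of *Axin2* or of any other member was not tested.

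**Figure D3:**
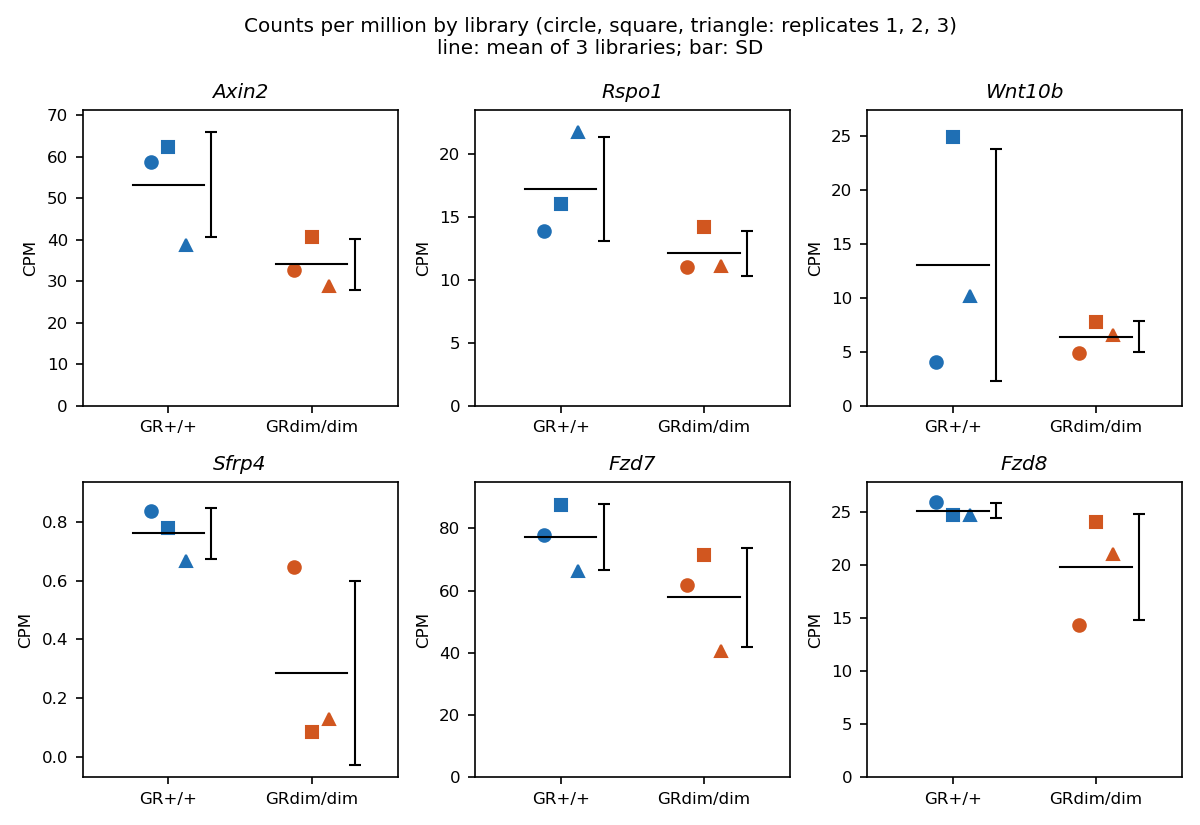
Level (CPM, linear axis) of 6 genes in each library of GR+/+ (blue) and GRdim/dim (orange) lungs, with the mean of 3 libraries as a line and the SD as a bar. *Sfrp4* and *Fzd8* do not overlap between genotypes, *Axin2*, *Rspo1* and *Fzd7* overlap by 1 library of each genotype, and for *Wnt10b* a single GR+/+ library lies far above the rest.

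Among the ligands, 11 of 19 were tested, of which 4 were higher and 7 lower, with log2 fold changes of -1.02 to 0.40. The smallest adjusted *p* in edgeR's quasi-likelihood test was 0.590. The highest levels per length were those of *Wnt3a*, a classical activator of β-catenin, *Wnt7b*, which the lung epithelium secretes, and *Wnt2*, a ligand of the lung mesenchyme. Their mean RPKM over the 6 libraries were 6.24 ± 1.80, 5.18 ± 2.31 and 4.85 ± 2.0 (SD), so that these neighbours did not differ beyond their spread.

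*Wnt3a* was present at 18.6, 14.8 and 19.0 CPM in GR+/+ and 14.2, 11.3 and 25.5 CPM in GRdim/dim replicates 1, 2 and 3. *Wnt7b* was present at 40.0, 19.6 and 29.1 CPM in GR+/+ and 19.2, 9.51 and 34.7 CPM in GRdim/dim lungs. *Wnt2* was present at 14.8, 8.09 and 5.53 CPM in GR+/+ and 11.9, 8.02 and 17.3 CPM in GRdim/dim lungs. All 3 overlapped between genotypes, and GRdim/dim replicate 3 was the highest or second highest library of each. Their log2 fold changes were -0.04 ± 0.30 for *Wnt3a*, -0.49 ± 0.42 for *Wnt7b* and 0.39 ± 0.39 for *Wnt2* (± standard error). With 1 library left out, *Wnt7b* ranged from -1.04 (without GRdim/dim replicate 3) to -0.13 and *Wnt2* from 0.08 to 0.87 (without GR+/+ replicate 1).

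The interval stayed within 2-fold for *Wnt9a*, *Wnt4*, *Wnt5a*, *Wnt3a*, *Wnt11* and *Wnt2b*. *Wnt5a* and *Wnt11* signal mostly outside the β-catenin route. *Wnt9a* varied least, with 10.8 to 12.8 CPM in all 6 libraries and a log2 fold change of 0.05 (95% interval -0.43 to 0.52). *Wnt5a* lay at 19.2 to 25.7 CPM in GR+/+ and 16.1 to 27.4 CPM in GRdim/dim lungs, with a log2 fold change of -0.06 (-0.61 to 0.48).

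*Wnt10b*, a ligand known for its part in bone and fat formation, had the largest fold change among the ligands and is described here because of its values. It was present at 4.06, 24.9 and 10.1 CPM in GR+/+ and 4.85, 7.73 and 6.59 CPM in GRdim/dim replicates 1, 2 and 3. GR+/+ replicate 2 alone was over 6-fold above GR+/+ replicate 1, which was the lowest library of all. The log2 fold change was -1.02 (standard error 0.53), with *p* = 0.0832 (adjusted *p* = 0.590) in edgeR's test and 0.5 in the exact permutation test. It was -0.16 (adjusted *p* = 0.973) without GR+/+ replicate 2 and -1.44 (adjusted *p* = 0.371) without GR+/+ replicate 1 in the same edgeR test. With a covariate for sex-linked expression in that test it was -0.36 (adjusted *p* = 0.938).

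R-spondins bind LGR receptors and keep the ubiquitin ligases ZNRF3 and RNF43 from removing frizzled receptors, and thereby raise the response to WNT. Of the 4, *Rspo1* was by far the most abundant, with a mean RPKM of 7.57 ± 2.05 (SD over 6 libraries) against 0.517 for *Rspo3* and 0.302 for *Rspo4*. *Rspo1* was present at 13.9, 16 and 21.8 CPM in GR+/+ and 11.1, 14.2 and 11.1 CPM in GRdim/dim replicates 1, 2 and 3. Only GR+/+ replicate 1 and GRdim/dim replicate 2 overlapped. The log2 fold change was -0.51 (standard error 0.24, 95% interval -1.05 to 0.03). It had *p* = 0.0621 (adjusted *p* = 0.553) in edgeR's test and 0.2 in the exact permutation test.

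*Rspo3* was present at 0.717 to 2.16 CPM in GR+/+ and 1.29 to 2.49 CPM in GRdim/dim lungs. *Rspo4* was present at 0.286 to 1.08 and 0.485 to 1.03 CPM. Both overlapped, and their 95% intervals, -0.77 to 1.38 and -0.95 to 1.70 log2 units, did not exclude an increase of over 2-fold. *Rspo2*, too low for the main test and singled out because of its counts, held 4, 4 and 8 counts in GR+/+ replicates 1, 2 and 3 and 0 counts in each GRdim/dim library. With the 16 counts taken as exact and the GRdim/dim group set at a floor of 3 counts, its level was 4.77-fold lower in GRdim/dim lungs. This ratio leaves out the counting error of the 16 and the spread between mice, so *Rspo2* has no firm minimum decrease. Its *p* was 0.00767 (adjusted *p* = 0.223) in edgeR's quasi-likelihood test without a filter on low counts and 0.0206 in DESeq2, which gave it no adjusted *p*. *Wnt8b* had 8 counts, all in GR+/+ replicate 3, so that a group at 0 also occurred through 1 library.

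Frizzled receptors are the membrane proteins that bind WNT directly. Of the 8 tested, 3 were higher and 5 lower, with log2 fold changes of -0.41 to 0.21 and standard errors of 0.18 to 0.32. *Fzd4*, the receptor of blood vessels that also binds norrin, had a mean RPKM of 21.5 ± 4.72, *Fzd1* of 19.4 ± 6.71 and *Fzd7* of 14.9 ± 3.55 (SD over 6 libraries), and the ranges of all 3 overlapped.

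*Fzd4* was present at 171, 172 and 133 CPM in GR+/+ and 152, 152 and 86.9 CPM in GRdim/dim replicates 1, 2 and 3 (log2 fold change -0.28 ± 0.23). *Fzd1* was present at 112, 63.6 and 50.5 CPM in GR+/+ and 106, 54.3 and 102 CPM in GRdim/dim lungs (0.21 ± 0.32). *Fzd7* was present at 78.0, 87.7 and 66.4 CPM in GR+/+ and 61.8, 71.6 and 40.5 CPM in GRdim/dim lungs. Replicate 3 was the lowest GR+/+ library in all 3 genes and replicate 3 the lowest GRdim/dim library for *Fzd4* and *Fzd7*. *Fzd7*, a receptor of stem and progenitor cells, had a log2 fold change of -0.41 (standard error 0.22), with *p* = 0.0889 (adjusted *p* = 0.601) in edgeR's test and 0.2 in the exact permutation test.

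*Fzd8* was the receptor whose genotypes did not overlap, at 25.9, 24.7 and 24.7 CPM in GR+/+ and 14.3, 24.0 and 21.1 CPM in GRdim/dim replicates 1, 2 and 3. The gap was narrow, because GRdim/dim replicate 2 lay just below the GR+/+ libraries. The log2 fold change was -0.34 (standard error 0.22, 95% interval -0.84 to 0.15). Its *p* = 0.156 in edgeR's test (adjusted *p* = 0.700) stood beside 0.1 in the exact permutation test. *Fzd2*, *Fzd3*, *Fzd5* and *Fzd6* had log2 fold changes of -0.17 to 0.03, and *Fzd9* and *Fzd10* were too low to be tested.

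LRP5 and LRP6 pair with frizzled receptors in the β-catenin route. *Lrp5* was present at 242, 226 and 161 CPM in GR+/+ and 160, 207 and 143 CPM in GRdim/dim replicates 1, 2 and 3. *Lrp6* was present at 132, 126 and 185 CPM in GR+/+ and 128, 182 and 127 CPM in GRdim/dim lungs. Both overlapped between genotypes. The log2 fold change was -0.30 (95% interval -0.77 to 0.17) for *Lrp5* and -0.02 (-0.49 to 0.45) for *Lrp6*. Per length *Lrp5* reached 19.5 ± 4.16 and *Lrp6* 10.7 ± 2.10 RPKM (SD over 6 libraries), with ranges of 14.7 to 24.8 and 9.19 to 13.5 that did not overlap.

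Secreted frizzled-related proteins, FRZB and WIF1 bind WNT outside the cell. The most abundant were *Sfrp1* with a mean RPKM of 3.37 ± 1.01, *Sfrp2* with 2.94 ± 1.06 and *Wif1* with 1.95 ± 0.430 (SD over 6 libraries). *Sfrp1* was present at 19.7, 15.0 and 17.0 CPM in GR+/+ and 12.6, 16.9 and 7.17 CPM in GRdim/dim replicates 1, 2 and 3 (log2 fold change -0.49 ± 0.30). *Sfrp2* was present at 7.95, 5.34 and 4.61 CPM in GR+/+ and 3.40, 9.51 and 7.17 CPM in GRdim/dim lungs (0.17 ± 0.39). *Wif1* was present at 4.54, 5.40 and 4.32 CPM in GR+/+ and 3.29, 6.36 and 4.46 CPM in GRdim/dim lungs (-0.01 ± 0.32). In all 3 the genotypes overlapped, and the GRdim/dim libraries spread more widely than the GR+/+ libraries.

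*Sfrp4* was the member with the largest fold change among those tested, and also 1 of the lowest. It held 14, 13 and 21 counts in GR+/+ and 12, 2 and 2 counts in GRdim/dim replicates 1, 2 and 3, or 0.837, 0.779 and 0.667 against 0.647, 0.0831 and 0.129 CPM. Every GRdim/dim library lay below every GR+/+ library, although GRdim/dim replicate 1 came close to GR+/+ replicate 3. The log2 fold change was -1.40 (standard error 0.72, 95% interval -3.00 to 0.19). Tests gave *p* = 0.0749 (adjusted *p* = 0.580) with edgeR and 0.1 with the exact permutation test. In edgeR's test it was -2.81 (adjusted *p* = 0.269) without GRdim/dim replicate 1 and -0.91 (adjusted *p* = 0.779) without GRdim/dim replicate 2. *Sfrp5* was present at 0.127 to 1.20 and 0.701 to 1.16 CPM and overlapped (log2 fold change 0.49 ± 0.69).

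Of the DKK family, DKK1, DKK2 and DKK4 block LRP5 and LRP6, whereas DKK3 is a divergent member without this established role. *Dkk3* had the highest level per length of all 48 genes, with 29.7 ± 6.91 RPKM (SD over 6 libraries). It was present at 83.8, 110 and 74.3 CPM in GR+/+ and 84.8, 137 and 110 CPM in GRdim/dim replicates 1, 2 and 3, with overlap and a log2 fold change of 0.30 (95% interval -0.17 to 0.78). *Dkkl1* (0.25 ± 0.37) and *Dkk2* (0.29 ± 0.50) were low and overlapped as well. *Dkk1*, an antagonist that glucocorticoids are known to induce in bone, was too low for a test, at 0.159 to 0.480 CPM in GR+/+ and 0.0646 to 0.431 CPM in GRdim/dim lungs.

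*Notum*, an extracellular enzyme that removes the lipid from WNT, was present at 5.74, 4.26 and 3.02 CPM in GR+/+ and 3.67, 3.70 and 7.62 CPM in GRdim/dim replicates 1, 2 and 3. The genotypes overlapped, with a log2 fold change of 0.20 (95% interval -0.65 to 1.06). Of its transcript sequence, 33% also occurs in other annotated transcripts, chiefly its antisense gene *Notumos*, and how the counting used strand is not given in the sources used here, so that its value is uncertain.

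The rest of the pathway was read from a fixed list of 108 genes, of which 106 were in the counts and 101 were tested. No gene of the list was a DEG in edgeR's quasi-likelihood test. Of the 101, 38 were higher and 63 lower in GRdim/dim lungs, whereas 49.1% of all genes tested were lower. The median log2 fold change was -0.07, against 0.006 over all genes. An unadjusted *p* under 0.05 in edgeR's test was reached by 12 (11.9%), against 9.60% of all genes (4.68% lower and 4.91% higher).

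Of these 12, 3 were higher. *Snx3*, which helps to recycle the WNT carrier Wntless, had a log2 fold change of 0.46 ± 0.16. *Lypd6*, a membrane-anchored enhancer of LRP6 signaling, had 0.81 ± 0.29, and *Apcdd1*, a membrane-bound inhibitor of WNT, had 0.90 ± 0.36. The other 9 were lower. They included *Porcn*, which attaches the lipid to WNT (-0.51 ± 0.20), the scaffolds of the destruction complex *Apc2* (-1.07 ± 0.37) and *Amer1* (-0.54 ± 0.23), and the nuclear partners *Bcl9l*, a co-activator (-0.59 ± 0.18), and *Tle1*, a co-repressor (-0.44 ± 0.20). They also included the cyclin *Ccnd1* (-0.45 ± 0.19), the polarity genes *Celsr1* (-0.45 ± 0.20) and *Prickle2* (-0.43 ± 0.19), and *Prkca*, the α isoform of protein kinase C in the calcium branch (-0.80 ± 0.15). All errors are standard errors of the edgeR fit. The gene *LTO1*, on the opposite strand, covers 23.4% of the exon bases of *Ccnd1*.

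*Prkca* is described because it had the smallest adjusted *p* of the list in edgeR's quasi-likelihood test. It was present at 66.9, 65.9 and 66.2 CPM in GR+/+ and 37.3, 37.5 and 39.4 CPM in GRdim/dim replicates 1, 2 and 3. The groups did not overlap. The spread within each was small, but in a gene picked by its *p* this cannot be read as a trait of the gene. Its *p* was 0.000342 and its adjusted *p* 0.0961 in edgeR's quasi-likelihood test, so that it was not a DEG there, whereas DESeq2 gave an adjusted *p* of 0.00551 and a log2 fold change of -0.80. PKCα serves many pathways other than WNT.

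Beyond *Axin2*, the list held 14 genes that β-catenin induces in many tissues. Of these, 4 were higher and 10 lower in GRdim/dim lungs, whereas 49.1% of all genes tested were lower. Their median log2 fold change was -0.25. An unadjusted *p* under 0.05 in edgeR's test was reached by 2 (14.3%), *Ccnd1* lower and *Apcdd1* higher, against 9.60% of all genes. The summed level of these 14 genes was 708 to 806 CPM in GR+/+ and 621 to 693 CPM in GRdim/dim lungs, without overlap. The summed levels of every other group of the list overlapped between genotypes. No background share was computed for sums of genes. Most of the sum of the 14 genes came from 4 of them. *Nkd1*, another feedback inhibitor, was present at 187 ± 28.1 and 144 ± 31.6 CPM (SD, n = 3 mice each) and *Ccnd1* at 138 ± 25.5 and 101 ± 12.3 CPM. *Cd44*, which many leukocytes also carry, was present at 169 ± 25.1 and 195 ± 40.4 CPM, and *Myc* at 66.6 ± 10.6 and 52.3 ± 12.9 CPM. None of these 4 was a DEG, and *Cd44* went the opposite way from the other 3.

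**Figure D4:**
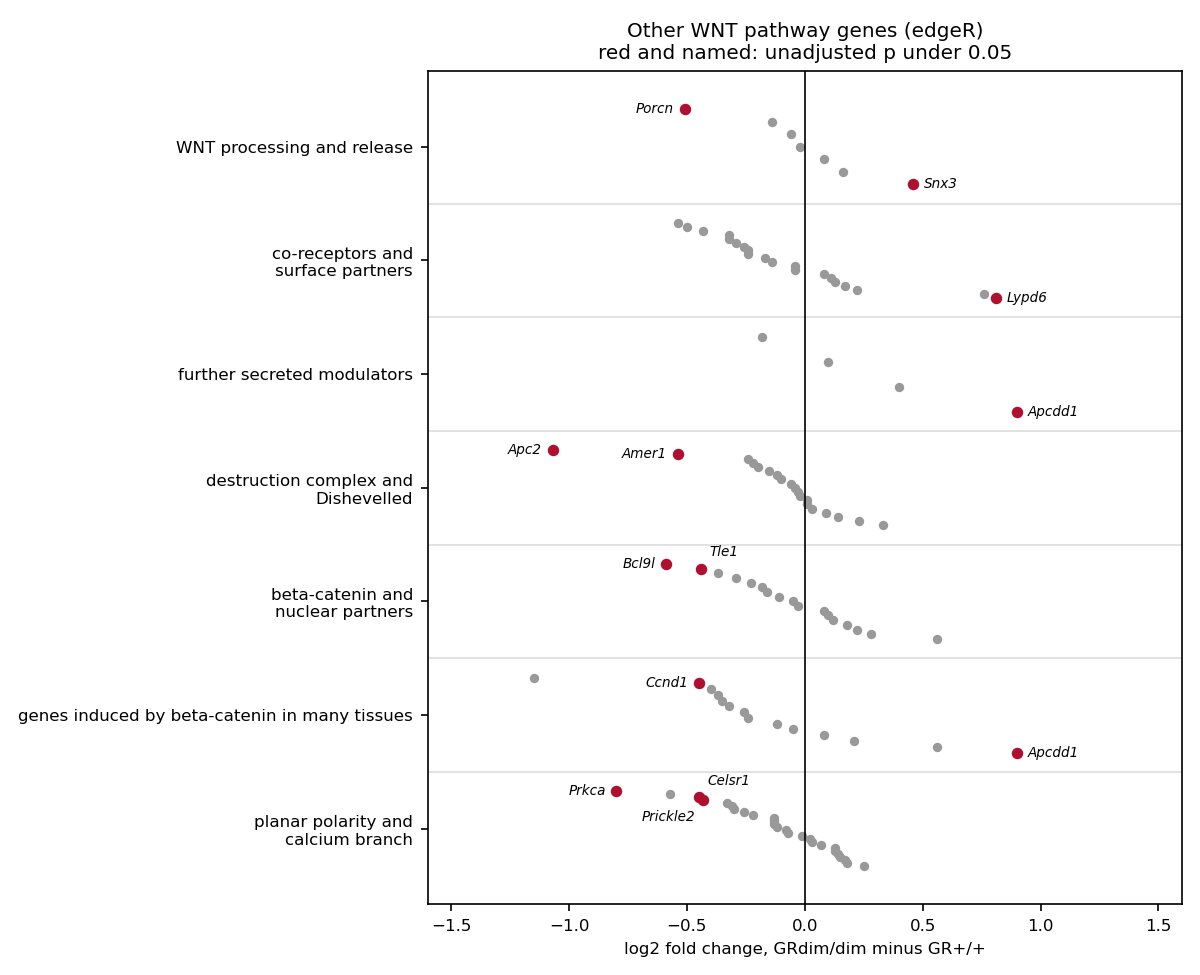
Log2 fold change (GRdim/dim minus GR+/+) of the tested genes of the wider WNT pathway, 1 point per gene, in 7 groups, with the 12 genes of unadjusted *p* under 0.05 in edgeR named in red. Of the 107 points, 66 lie left of 0 and 41 right of it, and 6 genes appear in 2 groups each.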

How the data were processed

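Bulk poly(A) RNA-sequencing was performed by the authors on lung RNA of 3 GR+/+ and 3 GRdim/dim mice, 1 mouse per experimental day and 1 library per mouse. The authors deposited raw counts of reads per gene for 54532 genes, without normalization. The submitters' processing notes name the build mm10 and DESeq2, and the aligner, counter and use of strand are not given in the sources used here. Of the genes, 54409 were found in GENCODE M21, and 47 of the 48 members had identical coordinates there. Groups and replicate numbers come from the labels.

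All genes were fitted together with edgeR 4.0.16 under R 4.3.3, after TMM scaling and filterByExpr, by glmQLFit (robust) and glmQLFTest, and *p*-values were adjusted by Benjamini-Hochberg over 16568 genes. RPKM divides TMM-scaled CPM by the deposited gene length. A prior count of 2 entered only the log2 CPM used to compare replicate numbers, and the fits kept edgeR's default. Libraries of one genotype were not duplicates (chi-square per degree of freedom 19.2 to 62.9, where sampling noise gives 1) and served as separate samples. The edgeR *p*-values rest on the spread between these mice, moderated over all genes. That spread also holds differences of sex and experimental day.

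The members and gene lists were chosen with earlier results of these data known. Named in full were members with an unadjusted *p* under 0.05 or without overlap and a log2 fold change over 0.5 in size, the 3 most abundant of each role by level, and other pathway genes with an unadjusted *p* under 0.05. *Wnt10b*, *Rspo2*, *Fzd8*, *Sfrp5*, *Wnt9a*, *Wnt5a*, *Nkd1*, *Cd44* and *Myc* were added after their values were seen. Alternatives were RLE scaling, no filter, at least 10 counts in every library, DESeq2 1.42.0, a replicate block, a covariate for sex-linked expression and each library left out. No set tests were made.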

Additional observations from a re-analysis of the deposited data

How the results depend on the processing

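The number of DEGs among the members was 0 under every alternative, and the median log2 fold change of the members stayed between -0.12 and 0.05. The number of members with an unadjusted *p* under 0.05 was 1 in the main test. Without a filter on low counts it was 5 of 47, against 2813 of 31368 genes. With DESeq2 it was 3 of 47, against 1851 of 31346 genes. With the replicate number as a block it was 3 of 34, against 1722 of 16568 genes. A covariate for sex-linked expression gave 3 of 34, against 1328 of 16568 genes. With 1 library left out it was 0 to 4, against 1190 to 1971 genes. The lowest was 0 of 35 without GR+/+ replicate 2, against 1361 of 17048 genes. The highest was 4 of 35 without GRdim/dim replicate 2, against 1477 of 16865 genes. Without a filter the members were *Wnt10b*, *Axin2*, *Rspo2*, *Fzd7* and *Wnt7b*, and with the covariate *Wnt7b*, *Axin2* and *Sfrp4*. With 1 library left out, *Wnt2*, *Wnt7a*, *Wnt7b*, *Wnt10b*, *Rspo1*, *Fzd7*, *Lrp5*, *Sfrp1* and *Sfrp4* were each among them at least once. *Axin2* was among them except without GR+/+ replicate 1 or 2, and its adjusted *p* in edgeR's or DESeq2's test ranged from 0.121 to 0.739. The number of tested members without overlap was 2. It was 3 without a filter on low counts, where *Rspo2* is included, and 1 with at least 10 counts in every library, which removes *Sfrp4*. With 1 library left out it was 4 to 8, where fewer libraries have to be separated. The share of all genes without overlap was computed for the main test only. The counts without overlap under the alternatives therefore have no background to be judged by. The DEGs among all genes numbered 28 in the main test, 522 without a filter, 274 with DESeq2 and 4 to 22 with 1 library left out. The other pathway genes with an unadjusted *p* under 0.05 numbered 12, and 7 to 12 with 1 library left out (7 without GR+/+ replicate 1 or 2). The cause of these differences was not tested. *Wnt10b* had an adjusted *p* of 0.0549 in edgeR's test without a filter and of 0.973 without GR+/+ replicate 2. With the covariate for sex-linked expression, the log2 fold change was -0.62 for *Axin2* (main test -0.64) and -0.36 for *Wnt10b* (main test -1.02). It was -0.35 for *Rspo1* (-0.51), -1.85 for *Sfrp4* (-1.40), -0.35 for *Fzd7* (-0.41) and -0.29 for *Fzd8* (-0.34).

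Whether equal replicate numbers pair the libraries could not be decided, because deviations from a mean of 3 libraries depend on one another. The deviations of same-numbered libraries from their group means correlated with 0.218, 0.036 and -0.055, against -0.266 to 0.194 for the other pairs. The highest value was that of replicate 1 with replicate 1, whereas GR+/+ replicate 3 correlated best with GRdim/dim replicate 2. With the block, the 3 members were *Axin2*, *Fzd7* and *Sfrp4*, and the DEGs among all genes numbered 34.

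Depth limits the 14 untested members, which had at most 49 counts each over the 6 libraries.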

Other observations

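Among the untested ligands, *Wnt6* was the best covered, at 0.359, 0.300 and 0.413 CPM in GR+/+ and 0.593, 0.125 and 0.258 CPM in GRdim/dim replicates 1, 2 and 3, with overlap. *Frzb* was present at 0.717, 0 and 0.349 CPM in GR+/+ and 0.701, 0.208 and 0.517 CPM in GRdim/dim lungs, and *Fzd9* at 0.0600 to 0.239 and 0.0831 to 0.539 CPM. *Wnt8a* had its highest level, 0.646 CPM, in GRdim/dim replicate 3 and at most 0.127 CPM in the other libraries.

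*Fzd1* and *Wnt2* were highest in the same 3 libraries, GR+/+ replicate 1 and GRdim/dim replicates 1 and 3, with 102 to 112 CPM for *Fzd1* and 11.9 to 17.3 CPM for *Wnt2*. In the other 3 libraries they lay at 50.5 to 63.6 and 5.53 to 8.09 CPM. This split was noticed in the data, runs across the genotypes and was not tested.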
